A study of Homo sapiens with 6 samples.

Results

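The genes described here encode 10 ligands of the TGF-beta superfamily: AMH, GDF15, GDF11, INHBE, INHBB, BMP2, BMP4, BMP7, TGFB1 and TGFB2. They were picked by symbol from the 18164 genes with a distinct Ensembl ID in the authors' table, at a time when the difference between transfected and untransfected cells was already known, so their own differences, and the calls the fit over all genes gave them, are a description from which nothing is concluded. The cells were HEK293, an established human line from embryonic kidney that holds a piece of adenoviral DNA and serves to produce recombinant adeno-associated virus (AAV), grown in suspension from a commercial stock. In the transfected group, 3 libraries came from cells that had received 2 plasmids and a polymer reagent for AAV synthesis. In the untransfected group, 3 libraries came from cells given PBS with neither DNA nor reagent, and the harvest was at 18 h. A difference between the groups therefore covers DNA, reagent and vector production together, in 1 cell line. Whether the numbered replicates were separate cultures is not stated, and every p-value below rests on the spread among these libraries, which could be technical only.

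Ligands of this superfamily are secreted as dimers, after proteases of the furin type have cut the precursor. A dimer brings together type I and type II receptor kinases, which phosphorylate SMAD transcription factors. TGF-betas and activins signal mainly through SMAD2 and SMAD3, and BMPs and AMH through SMAD1, SMAD5 and SMAD9, with SMAD4 as the shared partner. GDF15 is an outlying member that acts on the receptor GFRAL together with RET and is known as a stress-induced hormone. AMH is best known as the Sertoli cell hormone that makes the Müllerian ducts regress.

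Windows around the start of RefSeq genes (GRCh38.p14, 250 bases before the start and 50 after) were found for 7 of the 10 genes, with more than 1 window for BMP4. INHBE, BMP2 and BMP7 had no entry. Shown are the window of AMH, which was higher in transfected cells, that of GDF11, which was lower, and that of TGFB1, whose groups overlapped, 5′ to 3′ on the strand of the gene. Capitals mark letters that match a searched motif on either strand.

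AMH, chr19:2249073-2249372, plus strand: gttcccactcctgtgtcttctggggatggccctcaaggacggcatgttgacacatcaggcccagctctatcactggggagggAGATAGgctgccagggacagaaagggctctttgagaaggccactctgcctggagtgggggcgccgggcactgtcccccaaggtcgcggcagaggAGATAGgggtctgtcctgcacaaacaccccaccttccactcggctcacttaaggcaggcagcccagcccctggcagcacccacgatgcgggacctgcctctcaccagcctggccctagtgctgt

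GDF11, chr12:55742872-55743171, plus strand: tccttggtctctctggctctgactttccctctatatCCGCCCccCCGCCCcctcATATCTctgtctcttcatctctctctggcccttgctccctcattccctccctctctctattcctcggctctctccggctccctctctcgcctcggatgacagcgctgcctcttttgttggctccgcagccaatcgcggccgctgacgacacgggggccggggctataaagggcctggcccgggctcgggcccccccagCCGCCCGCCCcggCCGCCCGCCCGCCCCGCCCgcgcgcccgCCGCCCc

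TGFB1, chr19:41353873-41354172, minus strand: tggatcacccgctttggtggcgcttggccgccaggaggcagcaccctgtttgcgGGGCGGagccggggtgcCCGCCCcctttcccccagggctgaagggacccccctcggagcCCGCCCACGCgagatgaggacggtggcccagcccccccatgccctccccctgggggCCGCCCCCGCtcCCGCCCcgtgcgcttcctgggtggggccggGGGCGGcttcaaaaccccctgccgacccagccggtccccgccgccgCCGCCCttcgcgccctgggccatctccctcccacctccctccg

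Of the motifs searched, the AMH window held the GATA factor letters AGATAN, at positions -168 and -74 from the start. They were in 24.5% of the 35116 windows of this length in the RefSeq table, and the GDF11 and TGFB2 windows held them too. The GC box GGGCGG was in 45% of all windows and in those of BMP4, GDF11, GDF15, INHBB and TGFB1. The EGR motif GCGTGGGCG was in 0.795% of all windows and, among the 7 genes, in that of TGFB1, at position -136 on the opposite strand. Its G form GCGGGGGCG was in 5.07% of all windows and in those of INHBB and TGFB1, where both forms overlap GC boxes. The SMAD letters CAGACA were in 16.9% of all windows and in those of BMP4 and TGFB2. The SOX letters ACAANG were in 35.5% of all windows and in those of GDF15 and TGFB2. The C/EBP-ATF element TGATGCAA (0.866% of all windows) and its wider form TGATGNAA (3.62%), which contains it, were in none of the 7 genes' windows. Neither were the cyclic AMP element TGACGTCA (1.85% of all windows), the AP-1 letters TGANTCA (7.71%), the SMAD palindrome GTCTAGAC (0.202%) or the NR5A1 letters AAGGTCA (3.92%). Only exact letters were counted, so near matches are missed, such as aaggtcg in the AMH window, which differs from the NR5A1 letters in the last base. Such matches describe the letters and show no binding, and their absence does not show that a site is missing. The NR5A1, SOX and GATA motifs were added after the expression values had been seen.

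Levels are given as TPM, the authors' transcript abundance per length, which adds up to 1000000 in each library, so a value is a share of the listed transcripts and its depth is unknown. On the second principal component (16.6% of the variance) transfected replicate 1 (13.7) and untransfected replicate 3 (17.6) stood away from the remaining libraries (-12.2 to -5.3). The share of TPM from mitochondrially encoded genes was 28.4% to 31.6% in the transfected group and 31.3% to 37.6% in the untransfected group. Of the HEK293 markers, VIM stood at 555 ± 4.93 against 422 ± 21.3 TPM and KRT8 at 85.4 ± 2.11 against 81 ± 4.82 TPM in transfected against untransfected cells; here and below such pairs are in this order, as mean ± SD with n = 3 per group.

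In untransfected cells TGFB1 had the highest level of the 10 ligands, at a mean of 46.3 TPM, followed by GDF11 at 25.3, BMP7 at 18.1, AMH at 12.3, BMP2 at 10.4, BMP4 at 10.3, INHBB at 8.48, INHBE at 2.15, GDF15 at 1.37 and TGFB2 at 0.637 TPM. Neighbours in this order had separate ranges over the libraries except AMH and BMP2, BMP2 and BMP4, and INHBE and GDF15. In transfected cells AMH came first, at a mean of 66.7 TPM, above TGFB1 at 43.4 TPM in every library, and the order of the other 9 was the same. BMP4 and INHBB were then the only neighbours with overlapping ranges. AMH supplied 33.7% to 36.6% of the summed TPM of the 10 genes in transfected libraries and 8.3% to 9.9% in untransfected libraries. Without AMH the sum was 117 to 129 TPM in transfected and 121 to 127 TPM in untransfected libraries, and these ranges overlapped. In bulk RNA, a change in the number of cells that express a gene and a change in RNA per cell cannot be told apart.

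**Figure D1:**
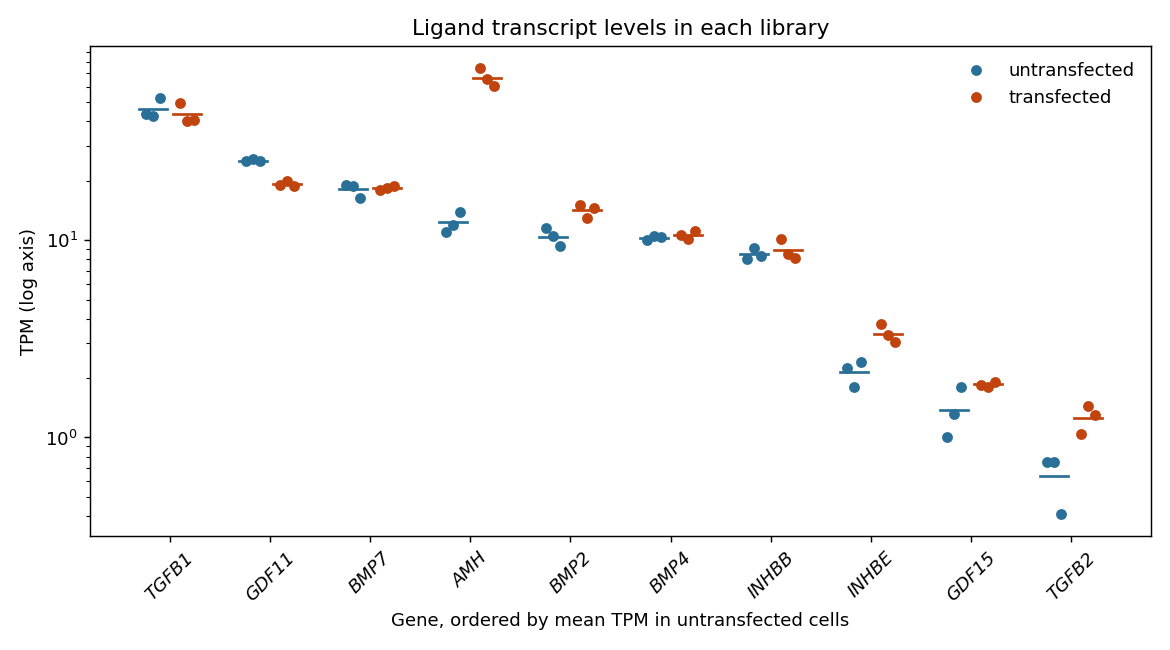
TPM (log axis) of the 10 ligand genes in each of 3 untransfected and 3 transfected libraries; points are libraries and short lines are group means. AMH moves from a mean of 12.3 TPM to 66.7 TPM, above all the others, while the other 9 genes keep their order.

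All 10 genes had at least 1 TPM in at least 3 libraries and entered the fit over 16145 genes (limma on log2(TPM + 1), adjusted p under 0.05). AMH, INHBE, BMP2 and TGFB2 were called higher and GDF11 lower, which makes 4 and 1 of 10. Over all tested genes 20% were called higher, 10.2% lower and 30.2% either way, and nothing is read from the ligands' counts because the choice of these genes used the same difference. The same 5 genes were those whose values did not overlap between groups, 4 above and 1 below, against 29.2% above, 17.3% below and 46.5% in all of the tested genes. TGFB2 reached 1 TPM in the transfected libraries alone, so it entered the fit only through the group where it was high. The calls over all genes, 3236 higher and 1644 lower, depended on scaling: with 4 alternative scalings there were 2743 to 3540 higher and 2874 to 3256 lower, and 3 to 4 ligands higher and 1 lower.

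AMH (ENSG00000104899, GRCh38 chromosome 19, 2249309 to 2252073, plus strand) was at 74.4, 65.5 and 60.3 TPM in transfected and 11, 11.9 and 13.9 TPM in untransfected replicates 1 to 3. The lowest transfected value lay 46.4 TPM above the highest untransfected value. The means were 66.7 ± 7.11 against 12.3 ± 1.51 TPM, a ratio of 5.44 and a difference of 2.35 on the log2(TPM + 1) scale. By this difference AMH stood at rank 3 of 12761 protein-coding genes tested and at rank 15 among all tested genes. Its level was above that of 83.6% to 87.9% of tested genes in transfected libraries and 42.4% to 50.1% in untransfected libraries. The log2 difference was 2.05 to 2.61 over 17 alternatives, the lowest with a pseudocount of 5 and the highest with GC and length trends removed. The transcripts of AMH have a median GC content of 71.8%.

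The gene that precedes AMH on the same strand is SF3A2, which encodes a subunit of the SF3a splicing complex and ends 629 bases before AMH begins (chromosome 19, 2236504 to 2248679). SF3A2 was at 189, 175 and 163 TPM in transfected and 110, 102 and 114 TPM in untransfected replicates 1 to 3. It rose (limma log2 difference 0.69, SE 0.073, adjusted p = 0.00074), with all transfected values above all untransfected ones. The ratio of AMH to SF3A2 TPM was 0.371 to 0.393 in the transfected group and 0.0997 to 0.122 in the untransfected group, so these ranges did not overlap. OAZ1, the ornithine decarboxylase antizyme gene 17435 bases beyond AMH, was at 227 ± 14.9 against 219 ± 17.3 TPM (limma adjusted p = 0.649). Whether reads that run on from SF3A2 enter the AMH values was not tested.

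By the distance between profiles of log2 values over the 6 libraries, each centred on its untransfected mean, the protein-coding genes most like AMH were EGR1 (0.34), H2BC5 (0.47), CGA (0.58), DHRS2 (0.60) and H4C5 (0.78). EGR1, an immediate-early transcription factor, was at 77.5, 67.7 and 63.4 TPM in transfected and 12.2, 15.6 and 16 TPM in untransfected replicates 1 to 3. Replicate 1 was the highest and replicate 3 the lowest transfected library for both AMH and EGR1. This order is not particular to them: it also held for DHRS2, SF3A2, INHBE and ATF3, though not for H2BC5, CGA and H4C5. The TPM ratio of AMH to EGR1 was 0.951 to 0.967 in the transfected group and 0.765 to 0.903 in the untransfected group. EGR1 was chosen by its likeness to AMH, so nothing is concluded from these values. H2BC5 and H4C5, replication-dependent histone genes, were at 44 ± 3.15 against 8.66 ± 1.31 TPM and 18.8 ± 2.48 against 3.28 ± 1.39 TPM. CGA, the alpha subunit shared by glycoprotein hormones, was at 76.7 ± 9.36 against 11.7 ± 1.23 TPM, and the short-chain dehydrogenase gene DHRS2 at 17 ± 1.06 against 3.47 ± 0.326 TPM.

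GDF15 (ENSG00000130513, GRCh38 chromosome 19, 18374731 to 18389176) was at 1.85, 1.8 and 1.92 TPM in transfected and 1.01, 1.31 and 1.8 TPM in untransfected replicates 1 to 3. Untransfected replicate 3 equalled the lowest transfected value, so the groups met. The means were 1.86 ± 0.0603 against 1.37 ± 0.399 TPM, a log2 difference of 0.28 that did not pass. Without untransfected replicate 3 it was called higher, and under no other alternative among the 16 that gave a value. PGPEP1, a peptidase gene that ends 4780 bases before the GENCODE start of GDF15 on the same strand, fell from 12.6 ± 0.634 to 7.91 ± 0.417 TPM (limma log2 difference -0.61, SE 0.079, adjusted p = 0.0014). The RefSeq window of GDF15 lies further from PGPEP1, at 18385908 to 18386207, inside the GENCODE gene. SSBP4, the next listed gene beyond GDF15, fell from 28 ± 1.79 to 21.6 ± 1.48 TPM (limma log2 difference -0.36, SE 0.077, adjusted p = 0.0102). The genes with profiles most like that of GDF15 were MXRA8 (distance 0.10), FOXL1, ACHE and EOMES (0.18 each) and GYPC (0.19). In all of them, as in GDF15, untransfected replicate 3 was the highest of its group, which the choice by profile favours.

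GDF11 (ENSG00000135414, GRCh38 chromosome 12, 55743280 to 55757278), a close relative of myostatin that patterns the axial skeleton, was the ligand with lower values in transfected cells. It was at 19.1, 20 and 18.9 TPM in transfected and 25.1, 25.7 and 25.1 TPM in untransfected replicates 1 to 3. The groups were 5.09 TPM apart, the means were 19.3 ± 0.594 against 25.3 ± 0.35 TPM, and the log2 difference was -0.37, with -0.47 to -0.32 under the alternatives. SARNP overlaps GDF11 on the opposite strand and was at 0.42 to 0.73 TPM in transfected and 0.21 to 0.63 TPM in untransfected libraries.

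The activin subunit genes differed among themselves. INHBE (ENSG00000139269, GRCh38 chromosome 12, 57452323 to 57459280), the activin beta E gene known from liver, was at 3.75, 3.29 and 3.03 TPM in transfected and 2.24, 1.8 and 2.4 TPM in untransfected replicates 1 to 3. All transfected values were higher, by at least 0.63 TPM, with a log2 difference of 0.47. INHBE was not called without transfected replicate 1 or 2 or untransfected replicate 2. INHBC, the beta C gene that ends 1494 bases before INHBE on the same strand, was at 2.19, 1.62 and 1.96 TPM in transfected and 0.61, 0.57 and 0.72 TPM in untransfected replicates 1 to 3. INHBC rose (limma log2 difference 0.84, SE 0.121, adjusted p = 0.00221), with a ratio of means of 3.04, but reached 1 TPM in transfected libraries alone. The ratio of INHBE to INHBC was 1.55 to 2.03 in the transfected group and 3.16 to 3.67 in the untransfected group. GLI1, the Hedgehog pathway factor 854 bases beyond INHBE, was at 1.56 ± 0.382 against 1.65 ± 0.127 TPM (limma adjusted p = 0.772). INHBB (ENSG00000163083, GRCh38 chromosome 2, 120346143 to 120351808), which forms activin B, was at 10.1, 8.47 and 8.15 TPM in transfected and 8, 9.15 and 8.29 TPM in untransfected replicates 1 to 3, with overlapping groups and a log2 difference of 0.06 (-0.04 to 0.12 under the alternatives).

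Of the BMP genes, BMP2 (ENSG00000125845, GRCh38 chromosome 20, 6767664 to 6780280), an inducer of bone formation, stood at 15, 13 and 14.5 TPM in transfected and 11.5, 10.4 and 9.31 TPM in untransfected replicates 1 to 3. Its transfected values were all higher, by at least 1.47 TPM, and the log2 difference was 0.41. The call was lost without transfected replicate 3. BMP4 (ENSG00000125378, GRCh38 chromosome 14, 53949736 to 53958761) was at 10.6, 10.1 and 11.2 TPM in transfected and 10.1, 10.5 and 10.3 TPM in untransfected replicates 1 to 3. BMP7 (ENSG00000101144, GRCh38 chromosome 20, 57168748 to 57266629) was at 17.9, 18.3 and 18.8 TPM in transfected and 18.9, 18.9 and 16.4 TPM in untransfected replicates 1 to 3. BMP4 and BMP7, both regulators of kidney development, had overlapping groups, with log2 differences of 0.04 (-0.05 to 0.07 under the alternatives) and 0.02 (-0.07 to 0.08). CDKN3, the listed gene upstream of BMP4 at 438087 bases, rose (limma log2 difference 0.27, SE 0.063, adjusted p = 0.0157). RAE1, upstream of BMP7 at 84380 bases, rose as well (limma log2 difference 0.41, SE 0.075, adjusted p = 0.00535). TFAP2C on the other side of BMP7 and the listed neighbours of BMP2 and INHBB did not pass.

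TGFB1 (ENSG00000105329, GRCh38 chromosome 19, 41301587 to 41353911), the prototype of the family, was at 49.4, 40.1 and 40.8 TPM in transfected and 43.6, 42.5 and 52.8 TPM in untransfected replicates 1 to 3. The groups overlapped, transfected replicate 1 and untransfected replicate 3 had the highest value of their group, and the log2 difference was -0.09. TGFB1 overlaps HNRNPUL1 (350 ± 15.4 against 313 ± 6.52 TPM), TMEM91 (2.5 ± 0.0265 against 3.45 ± 0.758 TPM) and CCDC97 (84.3 to 91.2 TPM in transfected and 73.6 to 79.1 TPM in untransfected libraries) on the opposite strand, and the strand setting of the authors' counting is not known, so its values are uncertain. TGFB2 (ENSG00000092969, GRCh38 chromosome 1, 218346235 to 218444619), an isoform active in heart and eye development, was at 1.04, 1.45 and 1.3 TPM in transfected and 0.75, 0.75 and 0.41 TPM in untransfected replicates 1 to 3. The groups were separate by 0.29 TPM. The log2 difference of TGFB2 was 0.47, and it ranged from 0.15 with a pseudocount of 5 to 0.92 with a pseudocount of 0.1. TGFB2 was not called when untransfected replicate 1, 2 or 3 was left out, after quantile normalization or with the replicate block, and it did not pass the filter when a transfected library was left out. RRP15, a ribosome biogenesis gene that ends 8251 bases before TGFB2 on the same strand, rose from 27.7 ± 3.29 to 41.9 ± 4.52 TPM (limma log2 difference 0.58, SE 0.106, adjusted p = 0.00548).

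**Figure D2:**
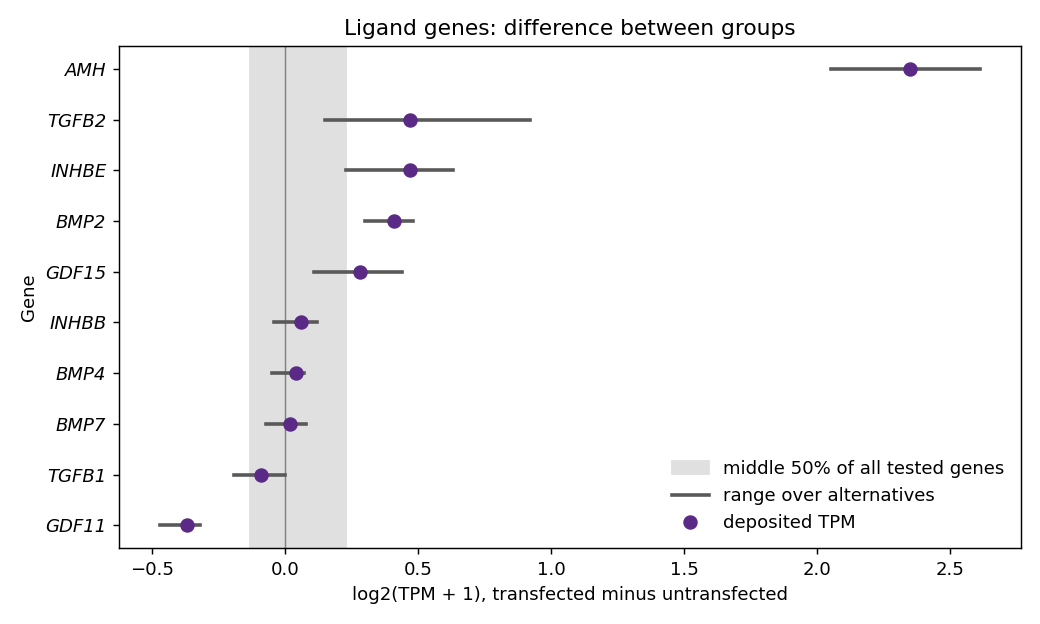
Difference between group means of log2(TPM + 1) for each ligand gene (points, 3 libraries per group), with the range over the alternatives (bars) and the middle of the distribution of all tested genes (grey, -0.13 to 0.23). AMH (2.35) lies far to the right of the other 9 genes (-0.37 to 0.47).

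Beyond these ligands, 10 lists of genes of the same pathway were followed in the same fit, with 101 different genes tested. Of these 24 rose and 9 fell, beside 20% and 10.2% of all tested genes, and their median log2 difference was 0.03 beside 0.05 for all tested genes. The alternative scalings had 23 to 26 of them higher and 14 to 19 lower. Without transfected replicate 2 or 3 the higher count was 15. The main count of 24 higher includes INHBC and NR0B1, which entered the fit only through the group where they were high. The lower count was 4 when transfected replicate 1 was left out, 2 for transfected replicate 2, 3 for untransfected replicate 1 and 5 for untransfected replicate 2.

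Of 9 other ligand genes tested, 3 rose and 1 fell, beside 20% and 10.2% of all tested genes, with a median of 0.10. The count of 3 includes INHBC, which entered the fit only through the group where it was high. TGFB3 rose from 2.49 ± 0.594 to 4.4 ± 0.244 TPM (limma log2 difference 0.65, SE 0.138, adjusted p = 0.0104), and GDF9, an oocyte growth factor, from 1.55 ± 0.118 to 2.54 ± 0.143 TPM (log2 difference 0.47, SE 0.101, adjusted p = 0.0104). The gene that fell was BMP8B, picked once its level was known, at 9.6, 9.63 and 10.2 TPM in transfected and 12.8, 12.5 and 11.6 TPM in untransfected replicates 1 to 3 (limma log2 difference -0.30, SE 0.074, adjusted p = 0.0186). The lower count was 0 when transfected replicate 1 or 2 or untransfected replicate 1 or 2 was left out, and 2 to 3 under the alternative scalings. BMP6, also picked once its level was known, had the highest level among these ligands, at 28.9 ± 1.91 against 23.9 ± 3.2 TPM, and did not pass.

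Of 12 type I and type II receptor genes 3 rose and 2 fell, beside 20% and 10.2% of all tested genes, with a median of 0.00. AMHR2, the type II receptor that binds AMH, was at 10, 8.95 and 9.29 TPM in transfected and 7.28, 6.63 and 6.93 TPM in untransfected replicates 1 to 3. It rose (limma log2 difference 0.39, SE 0.082, adjusted p = 0.00937), and the groups did not overlap. BMPR1B, a type I receptor for BMPs and AMH, rose from 5.01 ± 0.426 to 7.78 ± 0.531 TPM (limma log2 difference 0.55, SE 0.094, adjusted p = 0.00415). BMPR1A, also a type I receptor of BMPs and AMH and picked once its level was known, did not pass. It was at 12.2 ± 0.58 against 11.8 ± 1.17 TPM (limma adjusted p = 0.73). ACVR1, another type I receptor of BMPs and AMH, picked once its level was known, rose from 3.93 ± 0.345 to 4.99 ± 0.144 TPM, with a limma adjusted p of 0.0495 that ranged from 0.0285 to 0.146 over 16 alternatives and missed the threshold whenever a single library was left out. ACVRL1, a type I receptor of endothelial cells, fell from 3.31 ± 0.314 to 2.24 ± 0.311 TPM (limma log2 difference -0.42, SE 0.114, adjusted p = 0.0276). The ACVRL1 call was lost without transfected replicate 1 (adjusted p = 0.0798 in limma), with transfected replicate 2 left out (0.0758) and with untransfected replicate 1 left out (0.0951). TGFBR2, the type II receptor of TGF-betas, picked once its level was known, fell from 14.3 ± 0.496 to 11.5 ± 0.355 TPM (limma log2 difference -0.29, SE 0.069, adjusted p = 0.0165). Its call was lost without transfected replicate 2 (0.0609) or untransfected replicate 1 (0.069). The lower count of receptors was thus 1 with transfected replicate 1 left out, and 0 with either of the other libraries just named left out.

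The co-receptor list had 4 genes tested, of which 0 passed in limma, beside 30.2% of all tested genes. At an unadjusted p under 0.05 the count was also 0, and 0 to 1 were lower under the alternative scalings. The median was -0.08. The betaglycan gene TGFBR3 was at 18.9 ± 1.48 against 20.3 ± 0.944 TPM and the BMP co-receptor gene RGMB at 12.6 ± 0.465 against 12.4 ± 1.3 TPM. RET, the signalling partner of the GDF15 receptor, picked once its level was known, was at 1.06 to 1.21 TPM in transfected and 1.12 to 1.5 TPM in untransfected libraries. GFRAL was not analysed here.

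Among 8 SMAD genes 2 rose and 0 fell in limma, beside 20% and 10.2% of all tested genes, with a median of -0.01. The counts were the same at an unadjusted p under 0.05, and 0 to 1 were lower under the alternative scalings. SMAD1 was at 22.8, 23.1 and 21.4 TPM in transfected and 17.1, 18 and 18.1 TPM in untransfected replicates 1 to 3 (limma log2 difference 0.32, SE 0.066, adjusted p = 0.00851). SMAD5 was at 82.2, 88.1 and 86.3 TPM in transfected and 72.2, 73 and 62.7 TPM in untransfected replicates 1 to 3 (limma log2 difference 0.30, SE 0.072, adjusted p = 0.0158). Both transduce BMP and AMH signals, and in both the groups were separate. SMAD9, which also transduces these signals and was picked once its level was known, did not pass. It was at 12.8 ± 0.866 against 13.8 ± 1.62 TPM (limma log2 difference -0.09, adjusted p = 0.526). The SMAD5 call was lost without transfected replicate 2 (adjusted p = 0.0663 in limma) or 3 (0.0611), which leaves 1 SMAD gene higher. SMAD4, the shared partner, picked once its level was known, was at 6.65 ± 0.753 against 6.77 ± 0.571 TPM.

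Of 9 extracellular antagonist genes 1 rose and 2 fell, beside 20% and 10.2% of all tested genes, with a median of -0.07. FSTL3, an activin-binding protein, fell from 5.53 ± 0.371 to 4.08 ± 0.696 TPM (limma log2 difference -0.37, SE 0.116, adjusted p = 0.0439). The BMP antagonist gene CHRD fell from 3.91 ± 0.00577 to 2.88 ± 0.419 TPM (log2 difference -0.35, SE 0.106, adjusted p = 0.0408), and the pseudoreceptor gene BAMBI rose from 29.4 ± 1.54 to 34.1 ± 1.39 TPM (log2 difference 0.21, SE 0.066, adjusted p = 0.0442). The lower count was 0 when transfected replicate 1 or 2 or any untransfected library was left out. With GC and length trends removed, FSTL3 (adjusted p = 0.13 in limma) and CHRD (0.177) did not pass, and 2 other genes of the list did. FSTL3 did not pass without the filter on low values either (0.0539). BAMBI did not pass when any single library was left out (adjusted p 0.0667 to 0.149 in limma). The higher count was then 0, except that it was 1, through another gene, when untransfected replicate 1 was left out.

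Among 13 genes of ligand maturation and latency 2 rose and 1 fell, beside 20% and 10.2% of all tested genes, with a median of -0.07. FURIN, whose protease cuts ligand precursors, was at 42.7, 41.7 and 44.8 TPM in transfected and 50.1, 52.3 and 52.2 TPM in untransfected replicates 1 to 3 (limma log2 difference -0.25, SE 0.057, adjusted p = 0.0123). The related convertase gene PCSK5 rose from 3.35 ± 0.41 to 4.96 ± 0.0802 TPM (limma log2 difference 0.46, SE 0.1, adjusted p = 0.011). FBN1, the fibrillin that anchors latent TGF-beta complexes, rose from 6.93 ± 0.353 to 8.96 ± 0.325 TPM (limma log2 difference 0.33, SE 0.079, adjusted p = 0.0163). The FURIN call was lost when transfected replicate 2 was left out (adjusted p = 0.0554 in limma), so that the lower count was 0. The FBN1 call was lost when transfected replicate 2 (0.0653), transfected replicate 3 (0.0547) or untransfected replicate 2 (0.0508) was left out, so that the higher count was 1. When untransfected replicate 3 was left out the lower count was 2.

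Of 15 intracellular regulators 5 rose and 1 fell, beside 20% and 10.2% of all tested genes, with a median of 0.08. RNF111, a ubiquitin ligase that removes SMAD repressors, was at 22.1, 22.6 and 21.8 TPM in transfected and 16.2, 16.2 and 16.3 TPM in untransfected replicates 1 to 3 (limma log2 difference 0.43, SE 0.06, adjusted p = 0.002). The deubiquitinase gene USP15 rose from 11 ± 1.31 to 16.2 ± 1.27 TPM (limma log2 difference 0.52, SE 0.102, adjusted p = 0.00722). PMEPA1, a TGF-beta feedback inhibitor, rose from 2.95 ± 0.381 to 4.1 ± 0.0493 TPM (log2 difference 0.38, SE 0.103, adjusted p = 0.0271), a call kept only without untransfected replicate 2 when single libraries were left out, and lost when transfected replicate 1 and untransfected replicate 3 were both left out. SKI, a SMAD co-repressor picked once its level was known, fell from 69.6 ± 0.68 to 60.1 ± 2.12 TPM (log2 difference -0.21, SE 0.054, adjusted p = 0.0208). The ubiquitin ligase gene NEDD4L and the SMAD7 partner gene STRAP, also picked once their levels were known, rose from 5.6 ± 0.296 to 7.45 ± 0.451 TPM and from 506 ± 14.1 to 592 ± 10.5 TPM (log2 difference 0.36, SE 0.086, adjusted p = 0.0166 and log2 difference 0.23, SE 0.052, adjusted p = 0.0142). The higher count was 2 without transfected replicate 2 and 3 without transfected replicate 3, and the lower count was 0 when any library but untransfected replicate 3 was left out.

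Of 17 genes known as targets of SMAD signalling, 3 rose and 2 fell, shares near the 20% and 10.2% of all tested genes, with a median of 0.03. ID1, a BMP-induced inhibitor of basic helix-loop-helix factors, was at 8.26, 8.26 and 8.76 TPM in transfected and 14.1, 16.1 and 13.6 TPM in untransfected replicates 1 to 3 (limma log2 difference -0.72, SE 0.085, adjusted p = 0.00102). ID3, from the same family, was at 76.5, 67.8 and 78.1 TPM in transfected and 107, 119 and 117 TPM in untransfected replicates 1 to 3 (limma log2 difference -0.62, SE 0.073, adjusted p = 0.00102). Both fell under all 17 alternatives. ID2 and ID4, picked once their levels were known, did not pass and were at 86 ± 9.15 against 107 ± 13.8 TPM and 88.1 ± 4.47 against 87.1 ± 4.03 TPM. BHLHE40, which answers to TGF-beta and to many other stimuli, rose from 30.8 ± 0.897 to 53.5 ± 1.04 TPM (limma log2 difference 0.78, SE 0.056, adjusted p = 0.000157). BAMBI and PMEPA1, given above, were the others that rose, and the higher count was 1 when transfected replicate 1 or 3 or untransfected replicate 1 was left out.

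Stress factors known to act on GDF15 and INHBE, with their other targets, had 6 of 14 higher and 0 lower in limma (2 lower at an unadjusted p under 0.05 and 2 under each alternative scaling), beside 20% higher and 10.2% lower of all tested genes, with a median of 0.19. EGR1, described above, rose (limma log2 difference 2.18, SE 0.115, adjusted p = 3.22e-05). ATF3 was at 121, 113 and 105 TPM in transfected and 41.5, 43 and 35.4 TPM in untransfected replicates 1 to 3 (limma log2 difference 1.48, SE 0.087, adjusted p = 5.53e-05). ATF4, the main factor of the amino acid response, rose from 542 ± 28.6 to 830 ± 13.6 TPM (limma log2 difference 0.62, SE 0.059, adjusted p = 0.000495). DDIT3, which encodes CHOP, picked once its level was known, rose from 16.2 ± 1.35 to 23.9 ± 2 TPM (log2 difference 0.53, SE 0.088, adjusted p = 0.00372). XBP1 and MDM2, picked in the same way, rose from 79 ± 9.66 to 108 ± 4.58 TPM and from 60.9 ± 6.3 to 75.2 ± 5.41 TPM (limma adjusted p = 0.00798 and 0.0343). With single libraries left out the higher count of the list was 5 to 6. ASNS, TRIB3 and CHAC1, targets of ATF4 picked in the same way, did not pass and were at 2.7 ± 0.135 against 3.37 ± 0.107 TPM, 21 ± 1.86 against 23.2 ± 1.79 TPM and 13.3 ± 1.36 against 12.2 ± 1.07 TPM.

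Of 6 tested gonadal regulators of AMH, 1 rose and 0 fell in limma, beside 20% and 10.2% of all tested genes, with a median of 0.11. At an unadjusted p under 0.05, 1 was lower, and 0 to 1 were lower under the alternative scalings. NR0B1, which encodes DAX1, rose from 0.84 ± 0.0608 to 1.65 ± 0.178 TPM (limma log2 difference 0.52, SE 0.111, adjusted p = 0.01). It reached 1 TPM in transfected libraries alone, and when any of these was left out it was not tested and the count was 0. SOX9, which activates AMH in Sertoli cells, was at 26.2 ± 1.73 against 22.7 ± 1.41 TPM (limma adjusted p = 0.0835). GATA4, whose family's letters are in capitals in the AMH window, was at 21 ± 1.46 against 20.2 ± 0.673 TPM (limma adjusted p = 0.607).

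Of 8 Sertoli and granulosa markers 3 had values (SOX9, GATA4 and AMHR2), with a summed level of 54.5 to 58.9 TPM in transfected and 48.6 to 51.7 TPM in untransfected libraries, while DMRT1, NR5A1, FOXL2, FSHR and CYP19A1 were not analysed here. Of 6 fibroblast markers 5 had values, with a summed level of 22.7 to 25.6 TPM in transfected and 27.9 to 32.2 TPM in untransfected libraries. COL1A1 was at 13 ± 0.856 against 14.8 ± 0.604 TPM and LUM at 9.87 ± 2.37 against 13 ± 2.61 TPM, and DCN and PDGFRB were below 1 TPM in every library. Of the leukocyte markers, ITGAM was at 1.48, 1.29 and 1.01 TPM in transfected and 0.09, 0 and 0.09 TPM in untransfected replicates 1 to 3 (limma log2 difference 1.09, SE 0.131, adjusted p = 0.0011), and it reached 1 TPM in transfected libraries alone. The part of these markers in the ligand values was not tested.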

How the data were processed

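RNA-seq was carried out on total RNA of 10000000 HEK293 cells per sample, with stranded TruSeq libraries read as 75 nt pairs, per the labels' protocols. The authors deposited TPM per gene and library. STAR and GRCh38 are named in the submitters' processing notes. For the counting tool, strand setting and annotation, the answer is: not given in the sources used here. TPM keep no depth, so no counting interval is given. The table has 18298 rows, of which 134 that repeat an Ensembl ID with equal values were dropped. A name table matched 18139 IDs, and coordinates, GC content and length came from GENCODE release 29.

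The test was limma 3.58.1 in R 4.3.3 (two-sided, group only, moderated with a trend) on log2(TPM + 1), which understates changes of low genes. It covered the 16145 genes that reached 1 TPM in 3 or more libraries, with Benjamini-Hochberg adjustment over all of them and a threshold of 0.05. The procedure was tested on simulated data with far fewer changed genes than were called here. That test does not bear on how the calls depend on scaling. Alternatives were pseudocounts of 0.1 and 5, no filter or a filter of 5 TPM, median-ratio and quantile scaling, totals without mitochondrial and the 20 most abundant genes, no trend, a replicate block, and omission of single libraries. Removal of GC and length trends, and omission of transfected replicate 1 together with untransfected replicate 3, were added after the data were seen.

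The 10 ligands and the lists were chosen with earlier results of these data known. Named by rule were all ligands, up to 3 genes of each list that passed, by size of difference (the 2 most abundant where fewer than 2 passed), the 2 most abundant markers of each marker list, listed neighbours, and the 5 protein-coding genes nearest in profile to AMH and to GDF15. RefSeq windows (GRCh38.p14) were matched by symbol. Protein sequences were not used here. Results of some genes on the lists are not reported here.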

Additional observations from a re-analysis of the deposited data

How the results depend on the processing

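The ligands were chosen by the difference that these calls rest on, so their counts describe the settings and say nothing of stability. The number of ligands called lower was 1 under each of the 17 alternatives. The 4 ligands called higher became 2 with the filter of 5 TPM, which INHBE and TGFB2 do not reach, and 2 to 4 with single libraries left out. Over all genes, omission of single libraries gave 1820 to 2955 higher and 965 to 2027 lower, with the fewest without transfected replicate 2. Without both transfected replicate 1 and untransfected replicate 3 there were 3413 higher and 2098 lower. Genes called lower were 2874 after median-ratio scaling, 2893 after quantile normalization, 3256 with mitochondrial and the 20 most abundant genes left out of the total, and 3093 with GC and length trends removed, against 1644; the same settings had 14, 15, 19 and 18 pathway genes lower, against 9. With single libraries left out 15 to 23 pathway genes were higher and 2 to 9 lower. Deviations of same-numbered libraries from their group means correlated at -0.184, 0.107 and -0.163, and those of other pairs at -0.188 to 0.309. Deviations from a mean of 3 libraries depend on each other, so this cannot settle whether replicate numbers mark pairs. With the replicate block 2392 genes were higher and 1137 lower, 2 pathway genes were lower, and TGFB2 was no longer called. The causes of these shifts were not tested. Depth is unknown, so genes near 1 TPM, such as GDF15 and TGFB2, have an unknown counting error.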

Other observations

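Several genes of the pathway lay below the level needed for the test, and their values, chosen after they had been seen, are given without one. INHBA, the activin beta A gene, was at 0.72, 0.91 and 0.82 TPM in transfected and 0.33, 0.18 and 0.22 TPM in untransfected replicates 1 to 3, with separate groups. TGFBI, a gene induced by TGF-beta, was at 0.51 to 0.66 TPM in transfected and 0.08 to 0.21 TPM in untransfected libraries. BMP8A lay on the other side, at 0.41 to 0.59 TPM and 0.84 to 1.38 TPM, as did MSTN, the myostatin gene, at 0.12 to 0.56 TPM and 0.57 to 0.86 TPM.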
